A study of Mus musculus with 10 samples.

Results

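Interferon signalling and RNA sensing were followed in mouse morulae through 9 genes, taken by name from the gene tables of all 10 libraries. They are the RNA sensors Ddx58, Ifih1 and Dhx58, the transcription factors Irf3, Irf7, Irf9 and Stat2, and the effectors Oasl2 and Isg15. All 9 were found among the 24411 genes listed. RNA was sequenced from pools of 10 morulae, the embryo stage that precedes the blastocyst. In the Mettl3-ASO group (5 libraries) the one-cell embryo had been injected with antisense oligonucleotides against Mettl3, the gene of the methyltransferase that places N6-methyladenosine on RNA. In the ASO-Control group (5 libraries) it had received non-targeting ones. Embryos of both groups came from superovulated oocytes fertilized in vitro, were injected 3 to 6 h after insemination and were grown in KSOM medium until 72 h. The labels name the strain ICR for replicates 1 and 2 and no strain for replicates 3 to 5, which they mark as batch 2; replicates 1 and 2 carry no batch and are called untagged. A library is a pool of whole embryos, so fewer cells that express a gene and less RNA per cell cannot be told apart. Nothing in the labels tells whether the pools derive from different fertilizations; the p-values therefore reflect only how much these libraries vary, which may be technical variation.

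In most mouse cells, the helicases encoded by Ddx58 (RIG-I) and Ifih1 (MDA5) bind double-stranded or otherwise foreign RNA in the cytoplasm and signal through the adaptor MAVS to IRF3 and IRF7, which switch on interferon genes. Secreted type I interferon then acts through its receptor and Janus kinases on STAT2, which joins IRF9 in the complex ISGF3. ISGF3 binds the interferon-stimulated response element in promoters of effector genes such as Oasl2 and Isg15. Pluripotent cells of the early embryo are known for a weak response of this system.

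Ddx58, Ifih1, Stat2, Irf9 and Oasl2 were higher in every Mettl3-ASO library than in any ASO-Control library. Stat2, Irf9 and Oasl2 rose 2.61- to 2.77-fold from a low but measurable level. Ddx58 rose 12-fold and Ifih1 9.51-fold from a level close to 0, and the Ifih1 call rested on Mettl3-ASO replicate 2. Irf3, Dhx58, Irf7 and Isg15 overlapped between the groups and did not pass the test. Levels are FPKM, reads per gene scaled to transcript length and library size.

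ISGF3 acts on promoters through its response element, so the RefSeq promoter windows of these genes (GRCm38.p6, 250 bases before to 50 bases after the start) were searched on both strands for the core of that element, GAAA followed after any 2 bases by a second GAAA. It lay in 4 of the 8 genes with a window, Stat2, Ddx58, Ifih1 and Isg15, and in 3.44% of all 32851 windows (1131 windows). The letters were not in the windows of Oasl2, Irf3, Irf7 or Irf9. The stretches around the matches are shown 5′ to 3′ on the strand of each gene, with the matched bases in capitals. The Stat2 stretch is chr10:128270251-128270310, plus strand, at positions -247 to -188 from the RefSeq start, which lies upstream of the start in the GENCODE annotation.
Stat2: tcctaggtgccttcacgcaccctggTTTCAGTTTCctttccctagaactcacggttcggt
The Ddx58 stretch is chr4:40239804-40239833, minus strand, and spans the start itself, at positions -8 to 22.
Ddx58: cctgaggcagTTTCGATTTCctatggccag
The Ifih1 stretch is chr2:62646206-62646235, minus strand, at positions 21 to 50, after the start.
Ifih1: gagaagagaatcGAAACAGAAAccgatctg
The Isg15 stretch is chr4:156200856-156200915, minus strand, at positions -97 to -38, and holds 3 overlapping matches.
Isg15: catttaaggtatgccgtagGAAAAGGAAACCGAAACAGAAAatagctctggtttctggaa
Another interferon element, the gamma-activated site (TTCNNNGAA), was in 0 of the 8 windows and in 8.3% of all windows. A match of letters is a description of the sequence and not a measured binding site.

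Libraries held 9905830 to 13530284 expected counts when untagged and 21412857 to 32327283 in batch 2. Mettl3 itself had 0 to 0.04 FPKM in Mettl3-ASO (3 counts over 5 libraries), against 6.58 to 12.7 FPKM in ASO-Control (1681 counts). Of 12 markers of the preimplantation embryo, 11 had a mean of at least 1 FPKM; 2 of those 11 rose and 5 fell. The edgeR quasi-likelihood test with Benjamini-Hochberg adjustment was run on 9522 genes with a mean of at least 1 FPKM over the 10 libraries. It called 49.4% of them at an adjusted p under 0.05, 25.4% higher and 24.0% lower in Mettl3-ASO. Of the 9 genes, 4 passed this minimum (Irf3, Irf9, Stat2 and Oasl2), and 3 of the 4 rose and 0 fell. Stat2 passed through its Mettl3-ASO level, so its count among the tested genes carries no weight of its own. The other 5 were read from the same test with no minimum, over 19442 genes with at least 1 count, in which 16.2% of genes were called higher and 14.0% lower. There 5 of all 9 genes rose and 0 fell. The p-values of that fit match a normal test of log2 fold change over SE. Each gene's own spread over the libraries therefore hardly entered them, and they can be far smaller than in the fit with the minimum. The median log2 fold change was 1.34 over the 9 genes and 0.18 over all genes in the fit with no minimum, and 0.01 over all genes in the fit with it. Ranges that do not overlap and are higher in Mettl3-ASO were found for 5 of the 9 genes and for 9.73% of genes with a count.

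Ddx58, the RIG-I helicase that recognizes RNA with a 5′ triphosphate end, lies on chromosome 4 (40203773 to 40239828, minus strand, GRCm38). It had 0.75, 0.57, 0.82, 0.58 and 0.84 FPKM in Mettl3-ASO replicates 1 to 5. In ASO-Control replicates 1 to 5 it had 0.07, 0.09, 0, 0.10 and 0.03 FPKM. The Mettl3-ASO libraries lay close together and all stood far above the ASO-Control libraries, whose values rested on 0 to 15 counts each. Summed over libraries, 339 counts in Mettl3-ASO stood against 29 in ASO-Control. The ratio of summed CPM (counts scaled to library size) was 13.9 (95% exact interval 9.5 to 21.1, counting error only). Ddx58 rose with a log2 fold change of 3.59 ± 0.54 (SE, n = 5 each; edgeR adjusted p = 7.8e-10 with no minimum). That p-value hardly drew on the spread of Ddx58 itself. With the milder minimum of edgeR's filterByExpr, under which 12294 genes were tested, the log2 fold change was 3.62 ± 0.61 (edgeR adjusted p = 4.0e-04). That milder minimum was added after the data were seen. Ddx58 passed it through its Mettl3-ASO level, so its place among the genes tested there carries no weight of its own.

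Ifih1, the MDA5 helicase that recognizes long double-stranded RNA, lies on chromosome 2 (62595798 to 62646255, minus strand). Its values in Mettl3-ASO replicates 1 to 5 were 0.09, 0.70, 0.05, 0.04 and 0.15 FPKM. Its values in ASO-Control replicates 1 to 5 were 0, 0.02, 0.03, 0.01 and 0 FPKM. Mettl3-ASO replicate 2 was far above the other 4 libraries of its group, and the lowest Mettl3-ASO library was only just above the highest ASO-Control library. Counts summed to 71 in Mettl3-ASO, 36 of them in replicate 2, against 8 in ASO-Control. The ratio of summed CPM was 10.6 (95% exact interval 5.07 to 25.4, counting error only). The log2 fold change was 3.25 ± 0.99 (edgeR adjusted p = 0.00488 with no minimum). Without Mettl3-ASO replicate 2 it was 2.43 and the call was lost (edgeR adjusted p = 0.144); without ASO-Control replicate 3 it was 4.25. The call was also lost with limma on log2(FPKM + 1), where the adjusted p was 0.184.

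Dhx58 encodes LGP2, a helicase of the same family that lacks the signalling domains and tunes the other sensors. Its levels were 0.13, 0, 0.07, 0.21 and 0.26 FPKM in Mettl3-ASO replicates 1 to 5, and 0, 0.04, 0.08, 0.04 and 0.24 FPKM in ASO-Control replicates 1 to 5. The groups overlapped over nearly their whole range. With 32 counts in Mettl3-ASO and 26 in ASO-Control, the log2 fold change was 0.72 ± 1.11 (edgeR adjusted p = 0.651 with no minimum), so a difference was not detectable at this depth. Leaving out 1 library gave 0.17 to 1.44. In the annotation, 4.3% of its exon bases lie opposite the antisense gene Dhx58os, whose reads cannot be told apart without strand.

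Irf3, the transcription factor that the sensors activate first, lies on chromosome 7 (44997648 to 45002848, plus strand). It had 5.76, 2.02, 2.99, 4.18 and 2.93 FPKM in Mettl3-ASO replicates 1 to 5. The ASO-Control replicates 1 to 5 had 2.92, 2.34, 1.53, 3.84 and 1.34 FPKM. Replicate 1 was the highest of Mettl3-ASO and replicate 4 the highest of ASO-Control, and the ranges overlapped. The means were 3.58 ± 1.44 FPKM in Mettl3-ASO and 2.39 ± 1.03 FPKM in ASO-Control (SD, n = 5 each). The log2 fold change of 0.54 ± 0.33 did not pass the test (edgeR adjusted p = 0.195). Without ASO-Control replicate 4 it was 0.85 and was called (edgeR adjusted p = 0.0468).

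Irf7, the interferon-induced partner of Irf3, was close to the limit of detection. Mettl3-ASO libraries held 3, 0, 1, 5 and 0 counts, and ASO-Control libraries held 3, 0, 0, 0 and 4 counts. Totals of 9 counts in Mettl3-ASO and 7 in ASO-Control allow no statement on a difference (edgeR adjusted p = 0.893 with no minimum).

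Stat2, which carries the activation domain of ISGF3, lies on chromosome 10 (128270559 to 128292849, plus strand). The Mettl3-ASO replicates 1 to 5 had 3.04, 2.48, 2.15, 3.42 and 1.51 FPKM. The ASO-Control replicates 1 to 5 had 1.26, 1.03, 0.83, 1.08 and 0.54 FPKM. The lowest Mettl3-ASO library, replicate 5, was still above the highest ASO-Control library, replicate 1. Means were 2.52 ± 0.75 FPKM in Mettl3-ASO and 0.95 ± 0.28 FPKM in ASO-Control (SD, n = 5 each). Stat2 rose with a log2 fold change of 1.38 ± 0.26, or 2.61-fold (edgeR adjusted p = 9.0e-04).

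Irf9, the DNA-binding subunit of ISGF3, lies on chromosome 14 (55603571 to 55610030, plus strand). Its levels in Mettl3-ASO replicates 1 to 5 were 9.10, 5.85, 7.40, 5.07 and 4.01 FPKM. Its levels in ASO-Control replicates 1 to 5 were 1.81, 2.02, 1.31, 3.68 and 2.58 FPKM. All Mettl3-ASO libraries were above all ASO-Control libraries, with replicate 5 of Mettl3-ASO and replicate 4 of ASO-Control the closest pair. Means were 6.29 ± 2.00 FPKM in Mettl3-ASO and 2.28 ± 0.91 FPKM in ASO-Control (SD, n = 5 each). The log2 fold change was 1.39 ± 0.30, or 2.62-fold (edgeR adjusted p = 0.00218). Irf9 shares 2.3% of its exon bases with Rnf31 on the same strand.

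Oasl2, an interferon-induced gene of the oligoadenylate synthetase family, lies on chromosome 5 (114896936 to 114912234, plus strand). It had 5.69, 8.36, 5.27, 7.04 and 4.12 FPKM in Mettl3-ASO replicates 1 to 5. In ASO-Control replicates 1 to 5 it had 3.06, 2.22, 2.64, 1.19 and 1.68 FPKM. The groups did not overlap, and replicate 5 of Mettl3-ASO came nearest to the ASO-Control libraries. The means were 6.10 ± 1.64 FPKM in Mettl3-ASO and 2.16 ± 0.74 FPKM in ASO-Control (SD, n = 5 each). Oasl2 rose 2.77-fold, with a log2 fold change of 1.47 ± 0.26 (edgeR adjusted p = 5.7e-04).

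Isg15 encodes a ubiquitin-like protein that is secreted and also attached to other proteins. It was uneven within Mettl3-ASO, with 0, 0.36, 0, 0.87 and 1.66 FPKM in replicates 1 to 5. In ASO-Control it had 0.44, 0, 0, 0.06 and 0.18 FPKM in replicates 1 to 5. Replicates 4 and 5 of Mettl3-ASO were the highest libraries, while replicates 1 and 3 of the same group had no count, so the groups overlapped. The totals were 33 counts in Mettl3-ASO and 7 in ASO-Control, a ratio of summed CPM of 5.6 (95% exact interval 2.44 to 15.0, counting error only). Between libraries this did not pass the test, with a log2 fold change of 1.96 ± 1.41 (edgeR adjusted p = 0.321 with no minimum), which was 1.21 without Mettl3-ASO replicate 5 and 3.21 without ASO-Control replicate 1. In the transcripts, 3.96% of its windows of 50 bases also occur in the gene AC151275.1.

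**Figure D1:**
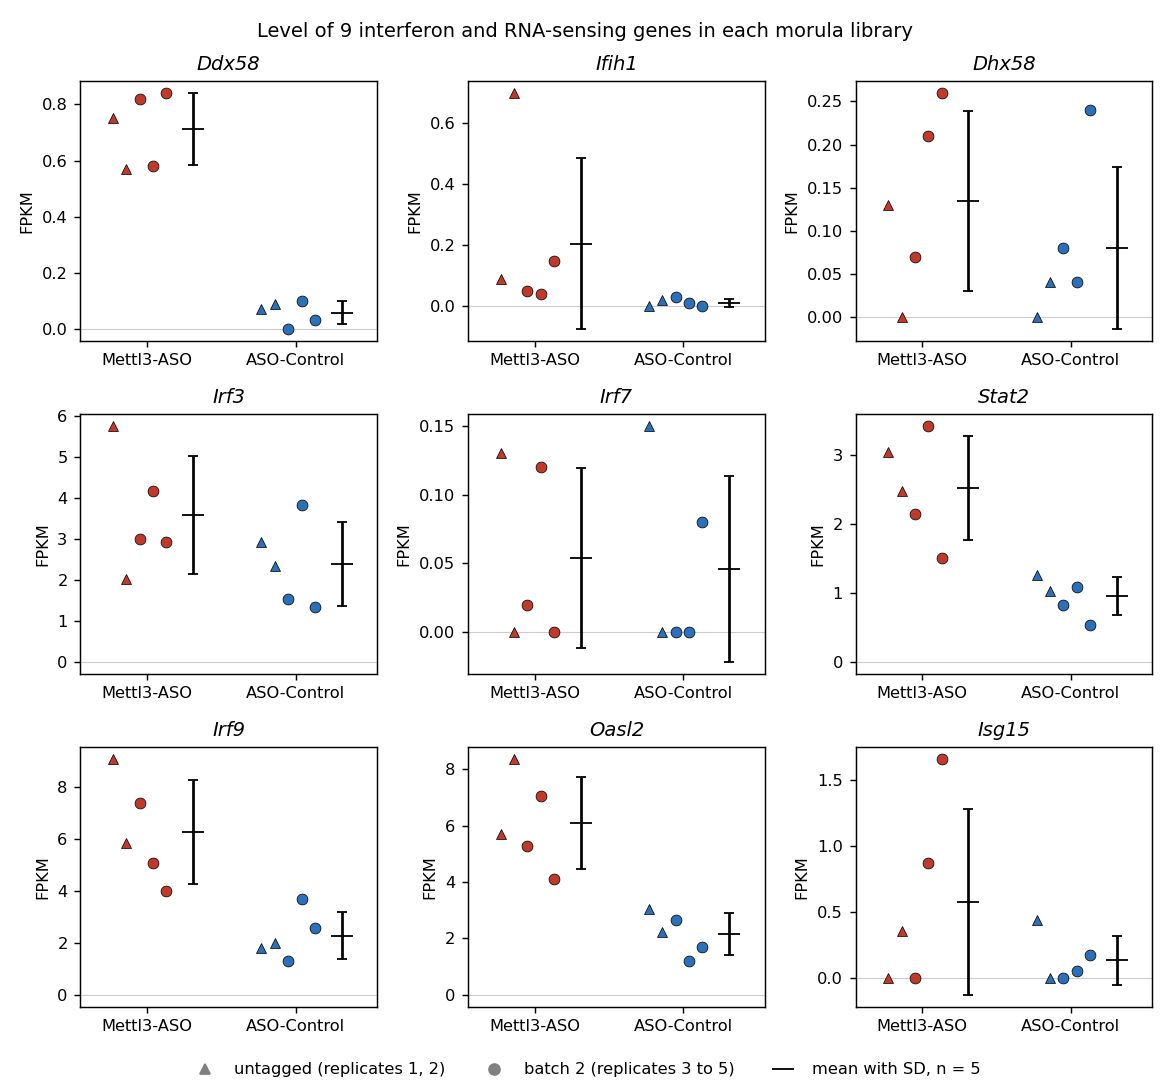
Level in FPKM (vertical axis, linear, its own scale in each panel) of the 9 genes in each library, Mettl3-ASO left and ASO-Control right, triangles for untagged and circles for batch 2 libraries, with the mean and SD of 5 libraries beside each group. Ddx58, Ifih1, Stat2, Irf9 and Oasl2 do not overlap between groups, and Ifih1 has 1 high library at 0.70 FPKM.

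The library batches gave the same direction for the genes that rose. In the untagged libraries alone, with 2 in each group, 1 of the 4 was called, where 3.79% of all genes were called higher. That gene was Irf9, with a log2 fold change of 1.89 (edgeR adjusted p = 0.0424). Oasl2 had 1.39 and Stat2 had 1.22 there (edgeR adjusted p = 0.0885 and 0.115). With the replicate number as a block all 3 were called in the untagged libraries, where 14.1% of all genes were then called higher. The edgeR adjusted p was 0.00518 for Oasl2, 0.0362 for Stat2 and 5.0e-04 for Irf9. With 2 libraries in each group, the block leaves little of a gene's own spread. Those p-values therefore rest mostly on spread shared over genes. In batch 2 alone, Stat2, Irf9 and Oasl2 were called (3 of the 4 genes tested), where 20.2% of all genes were called higher. Their log2 fold changes were 1.5, 1.09 and 1.54 (edgeR adjusted p = 0.01, 0.0449 and 0.00549).

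Among the sensors, Ddx58 had a log2 fold change of 2.95 ± 0.95 in the untagged libraries and of 3.94 ± 0.70 in batch 2, and was called in both (edgeR adjusted p = 0.0224 and 2.0e-05 with no minimum). Ifih1 had 5.29 ± 1.45 in the untagged libraries, which was called, and 2.22 ± 1.48 in batch 2, which was not (edgeR adjusted p = 0.00454 and 0.321 with no minimum). Of the untagged Mettl3-ASO libraries, replicate 2 held 36 counts of Ifih1 and replicate 1 held 6. The p-values of the untagged fit with no minimum also match a normal test of log2 fold change over SE. Each gene's own spread therefore hardly entered the untagged calls of Ddx58 and Ifih1. Isg15 had opposite signs, -0.36 ± 2.58 in the untagged libraries and 3.16 ± 1.61 in batch 2. The difference between batches was tested itself as an interaction of group and batch. By the edgeR test it passed for 0 of the 9 genes (0 also at an unadjusted p under 0.05) and for 0 of 9522 genes with the minimum (159 at an unadjusted p under 0.05), and for 48 of 19442 genes without it. For Ifih1 the untagged minus batch 2 difference was 3.19 ± 2.17 and for Isg15 it was -3.45 ± 2.83 on the log2 scale (edgeR unadjusted p = 0.142 and 0.223).

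**Figure D2:**
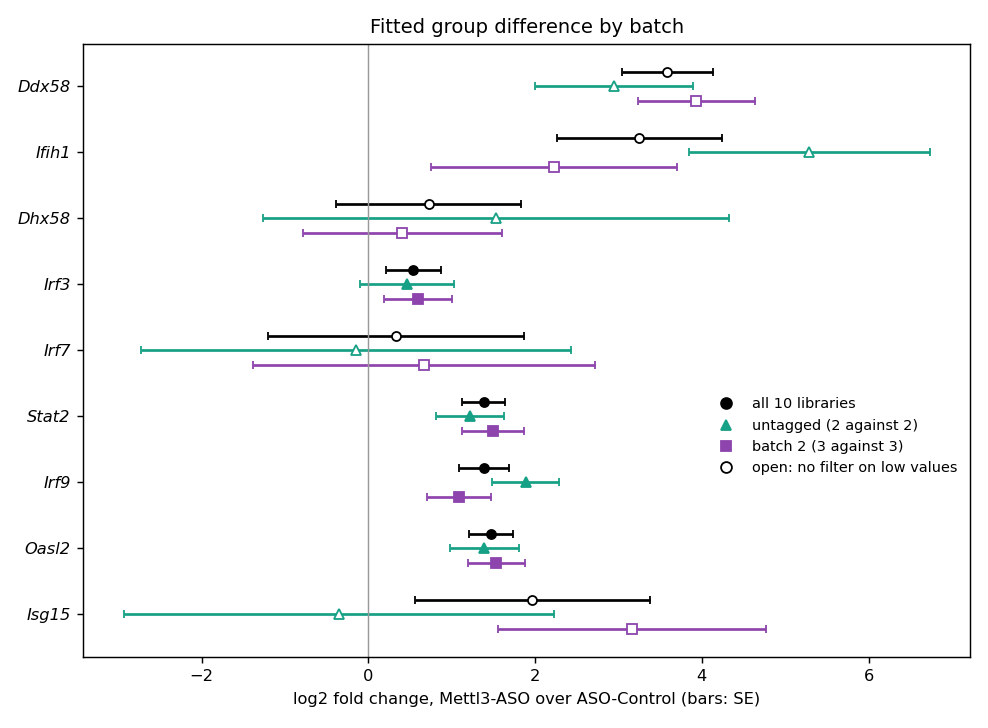
Log2 fold change of Mettl3-ASO over ASO-Control for the 9 genes (horizontal axis, bars are SE) from the fit of all 10 libraries and from the fit of each batch, with open symbols for values from the fit with no minimum. Stat2, Irf9 and Oasl2 lie between 1.09 and 1.89 in all 3 fits, and the low genes have wide bars.

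The order of levels, compared per length as FPKM, differed at the bottom more than at the top. In Mettl3-ASO, Irf9 (mean 6.29 FPKM) and Oasl2 (6.10) were highest, followed by Irf3 (3.58), Stat2 (2.52), Ddx58 (0.71), Isg15 (0.58), Ifih1 (0.21), Dhx58 (0.13) and Irf7 (0.05). In ASO-Control the order was Irf3 (2.39), Irf9 (2.28), Oasl2 (2.16), Stat2 (0.95), Isg15 (0.14), Dhx58 (0.08), Ddx58 (0.06), Irf7 (0.05) and Ifih1 (0.01). Neighbours in these orders overlapped in range, except Stat2 over Ddx58 in Mettl3-ASO and Stat2 over Isg15 in ASO-Control. Ddx58 ranked 5 of 9 in Mettl3-ASO and 7 of 9 in ASO-Control. Summed over the 9 genes, the level was 15.5 to 24.7 FPKM in Mettl3-ASO and 6.42 to 10 FPKM in ASO-Control. By mean FPKM over all 10 libraries, Irf9 stood at percentile 67.3 of the genes with any level measured, the highest of the 9. Irf7 stood at percentile 22.7, the lowest.

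The rest of the pathway was read from 8 lists of known genes, whose counts stand against 25.4% called higher and 24.0% called lower over all genes tested (16.2% and 14.0% with no minimum). Of 21 interferon ligands, 16 had no count in any library, Ifnb1 (chosen after its values were seen) among them. The 1 ligand tested was Ifng, type II interferon, which signals through a receptor of its own. Ifng had 11.5, 20.3, 39.1, 28.1 and 12.1 FPKM in Mettl3-ASO replicates 1 to 5. In ASO-Control replicates 1 to 5 it had 0.08, 1.01, 2.05, 0.70 and 0 FPKM. Every Mettl3-ASO library was above every ASO-Control library, with replicate 3 the highest of both groups. The log2 fold change was 4.84 ± 0.73 (edgeR adjusted p = 1.8e-04), and without ASO-Control replicate 3 it was 5.66. Ifng passed the minimum through its Mettl3-ASO level; with no minimum the log2 fold change was 4.78 (edgeR adjusted p = 2.9e-53). In the annotation, 25.9% of its exon bases are shared with the predicted gene Gm49751 on the same strand.

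Of 11 interferon receptor, Janus kinase and STAT genes, 8 were tested, 1 rose, 1 fell and 6 were not called. The Janus kinase Jak1 averaged 11.3 ± 2.17 FPKM in Mettl3-ASO and 8.56 ± 1.56 FPKM in ASO-Control (SD, n = 5 each), with a log2 fold change of 0.35 ± 0.12 (edgeR adjusted p = 0.0304) that 8 of 26 alternatives did not call. Stat3, a cytokine-activated transcription factor, fell to 1.45 ± 1.34 FPKM in Mettl3-ASO, against 3.88 ± 2.14 FPKM in ASO-Control (log2 fold change -1.45 ± 0.38; edgeR adjusted p = 0.00655), and its ranges overlapped through Mettl3-ASO replicate 1. The receptor subunit Ifnar1 had a log2 fold change of 0.48 ± 0.22 and was not called (edgeR adjusted p = 0.0961). It was called without Mettl3-ASO replicate 4 (edgeR adjusted p = 0.036). Ifnar1 passed the minimum through its Mettl3-ASO mean of 1.29 FPKM, against 0.86 FPKM in ASO-Control. Of 9 other genes of the IRF family and its partners, 4 were tested, 1 rose and 0 fell. The one that rose, Irf2bpl, had 0.86 ± 0.30 on the log2 scale (edgeR adjusted p = 0.0287) and was not called in 9 of 26 alternatives. Irf5 had -0.55 ± 0.26 and was not called (edgeR adjusted p = 0.0932).

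Of 32 other sensors, adaptors and kinases found, 18 were tested, 6 rose, 4 fell and 8 were not called. Zbp1, a sensor of left-handed nucleic acid, averaged 3.26 ± 1.06 FPKM in Mettl3-ASO and 1.0 ± 0.49 FPKM in ASO-Control without overlap (SD, n = 5 each; log2 fold change 1.71 ± 0.41, edgeR adjusted p = 0.00412). Zcchc3, an RNA-binding cofactor of the RNA sensors, rose with 0.95 ± 0.21 on the log2 scale (edgeR adjusted p = 0.00234). G3bp1, a stress granule protein, fell with -0.64 ± 0.16 (edgeR adjusted p = 0.0046). G3bp1 lost the call in batch 2 alone, and all 3 lost it in the untagged libraries alone.

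Of 59 interferon-stimulated effectors, 44 were under the minimum, 6 of them with no count, and 15 were tested, of which 6 rose, 2 fell and 7 were not called. Without the minimum, 15 of 53 rose and 3 fell, against 16.2% and 14.0% of all genes. Ifitm2, a membrane protein that hinders virus entry, had the highest level of the 59. It had 398, 457, 363, 274 and 451 FPKM in Mettl3-ASO replicates 1 to 5, against 242, 138, 171, 169 and 143 FPKM in ASO-Control replicates 1 to 5. The groups did not overlap (log2 fold change 1.15 ± 0.18, edgeR adjusted p = 2.0e-04), and Ifitm2 shares 40.9% of its exon bases with Gm45717 on the same strand. Parp9, a protein that acts in ADP-ribosylation and interferon signalling, averaged 1.78 ± 0.33 FPKM in Mettl3-ASO and 0.24 ± 0.16 FPKM in ASO-Control (SD, n = 5 each; log2 fold change 2.81 ± 0.44, edgeR adjusted p = 2.4e-04). It was among 2 of the 15 that passed the minimum through Mettl3-ASO; with no minimum its log2 fold change was 2.77 (edgeR adjusted p = 1.7e-10). Oas1e, of the oligoadenylate synthetase family like Oasl2, moved the other way, with 1.28 ± 0.95 FPKM in Mettl3-ASO and 4.62 ± 0.83 FPKM in ASO-Control (SD, n = 5 each; log2 fold change -1.91 ± 0.43, edgeR adjusted p = 0.00283). Several classic effectors, chosen after their values were seen, were at or near 0 in both groups. Ifit1 and Ifit3 had no count in either group. Rsad2 had 5 counts in Mettl3-ASO and 5 in ASO-Control, Mx1 had 7 in Mettl3-ASO and 34 in ASO-Control, and Usp18 had 0 in Mettl3-ASO and 5 in ASO-Control.

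**Figure D3:**
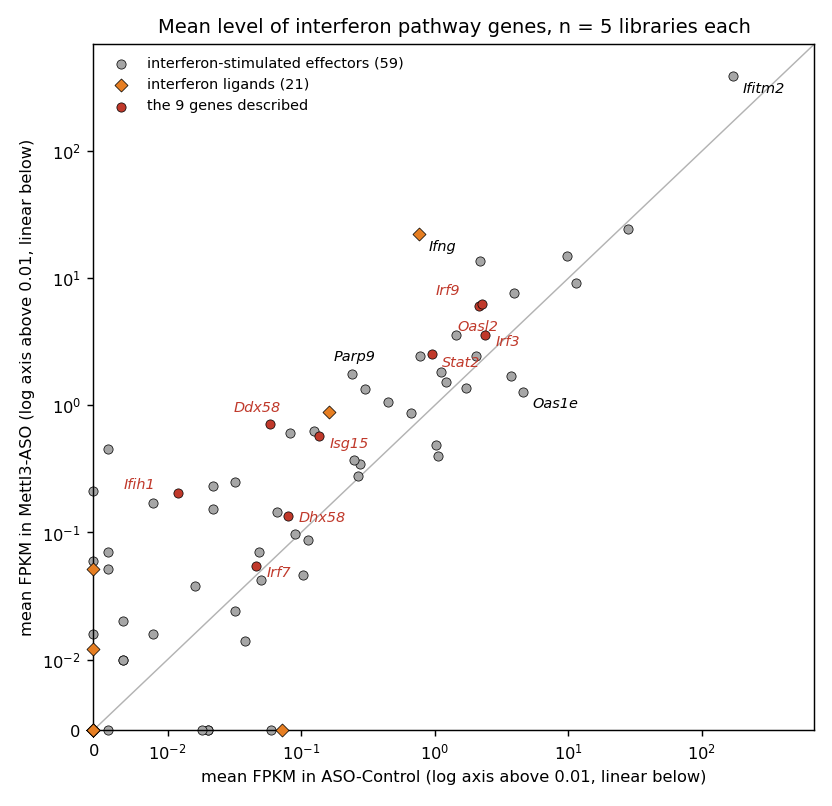
Mean FPKM over 5 Mettl3-ASO libraries (vertical axis) against mean FPKM over 5 ASO-Control libraries (horizontal axis) for 59 interferon-stimulated effectors, 21 interferon ligands and the 9 genes, on axes that are logarithmic above 0.01 and linear below; the line marks equal levels. Ifng and Ddx58 lie far above the line, Oas1e below it, and most ligands at 0 on both axes.

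The remaining lists moved in both directions. Of 15 genes of nucleic acid editing and clearance found, 12 were tested, 2 rose and 6 fell, with a median log2 fold change of -0.49. Rnaseh2b, a subunit of the nuclease that clears RNA from RNA-DNA hybrids, fell to 43.0 ± 10 FPKM in Mettl3-ASO, against 99.4 ± 16.2 FPKM in ASO-Control (log2 fold change -1.26 ± 0.13, edgeR adjusted p = 1.0e-05). Rnaseh1, a single-chain nuclease with the same kind of substrate, was higher at 40.6 ± 7.64 FPKM in Mettl3-ASO and 21.3 ± 2.48 FPKM in ASO-Control (SD, n = 5 each; log2 fold change 0.86 ± 0.14, edgeR adjusted p = 3.4e-04). Pnpt1, which degrades mitochondrial RNA, fell with -1.0 ± 0.20 on the log2 scale (edgeR adjusted p = 0.00142). Of 24 negative regulators, 21 were tested, 4 rose, 7 fell and 10 were not called. Among those 21, 2 passed the minimum through their Mettl3-ASO level.

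Socs3, which blocks Janus kinase signalling in feedback, rose with the smallest p among the negative regulators. It had 6.42, 5.24, 6.39, 10.2 and 10.1 FPKM in Mettl3-ASO replicates 1 to 5, against 1.19, 2.22, 1.97, 1.78 and 1.28 FPKM in ASO-Control replicates 1 to 5. The groups were far apart (log2 fold change 2.12 ± 0.25, edgeR adjusted p = 2.9e-05). The tyrosine phosphatase gene Ptpn11 fell with -1.80 ± 0.22 and the ubiquitin ligase gene Rnf5 with -1.06 ± 0.17 on the log2 scale (edgeR adjusted p = 4.5e-05 and 3.4e-04). Of 15 genes of the NF-kB response to double-stranded RNA, 7 were tested, 1 rose and 1 fell. Relb, an NF-kB subunit, rose with 1.67 ± 0.43 and Nfkbib, an NF-kB inhibitor, fell with -0.83 ± 0.17 (edgeR adjusted p = 0.00666 and 0.00161). Relb too passed the minimum through its Mettl3-ASO level, and with no minimum had 1.61 (edgeR adjusted p = 0.0019). The kinase gene Chuk had -0.28 ± 0.16 and was not called (edgeR adjusted p = 0.166). In the untagged libraries alone, only Ifng, Parp9 and Rnaseh2b were still called among the pathway genes named here.

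**Figure D4:**
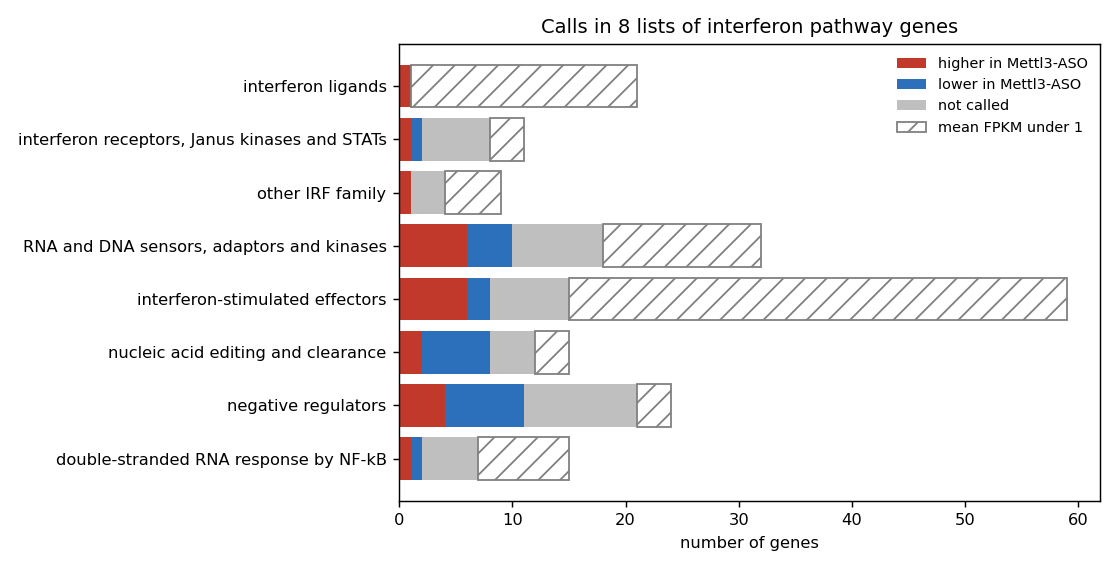
Number of genes (horizontal axis) in each of 8 pathway lists that were called higher in Mettl3-ASO, called lower, not called, or had a mean FPKM under 1 and were not tested. Of 59 interferon-stimulated effectors 44 were under the minimum, and nucleic acid editing and clearance had 2 higher and 6 lower.

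The summed levels of markers of the embryo itself and of other cell types were compared between the groups. The 12 preimplantation embryo markers summed to 23934 to 44679 FPKM in Mettl3-ASO and 17318 to 26436 FPKM in ASO-Control. Within each batch, that sum was higher in Mettl3-ASO, while by mean level 4 of the 12 were higher and 8 lower. The summed level of 12 leukocyte markers was 20.2 to 29.4 FPKM in Mettl3-ASO and 8.18 to 10.3 FPKM in ASO-Control; 2 of the 12 were tested, 1 rose and 0 fell. Cd52 had a mean of 16.5 FPKM in Mettl3-ASO and 2.50 FPKM in ASO-Control, and Spi1 had 8.22 FPKM in Mettl3-ASO and 5.77 FPKM in ASO-Control. By mean level, 8 of the 12 were higher and 4 lower in Mettl3-ASO; Cd3e, for one, had 7 counts in Mettl3-ASO and 28 in ASO-Control. The defining leukocyte gene Ptprc was at most 0.05 FPKM in Mettl3-ASO and at most 0.04 FPKM in ASO-Control. The summed level of 14 cumulus and granulosa cell markers was 36.7 to 50.9 FPKM in Mettl3-ASO and 18.2 to 25.5 FPKM in ASO-Control. Of the 14, 2 were tested and both rose. Over all genes tested, 25.4% were called higher, and the few tested markers of both lists stand against that share. Of these 14, 9 were higher and 2 lower in Mettl3-ASO by mean level. Nr5a2 made up most of the summed level, with a mean of 38.8 FPKM in Mettl3-ASO and 17.6 FPKM in ASO-Control. The sum therefore mostly follows that gene and says little about the rest of the list. Fshr had 0 counts in Mettl3-ASO and 1 in ASO-Control, and Inhba, Cyp19a1 and Has2 had none in either group. These genes were chosen for mention after their values were seen. Whether other cells had a part in the rise of the interferon genes was not tested.

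The genes whose level followed Oasl2 most closely over the 10 libraries were Ajuba (Pearson r = 0.96 of log2(FPKM + 1)), Cdkn1c (r = 0.94) and Cox8c (r = 0.94). Ajuba averaged 4.44 ± 1.39 FPKM in Mettl3-ASO and 1.55 ± 0.41 FPKM in ASO-Control (SD, n = 5 each). The libraries fall into 2 groups that differ in all of these genes, so the correlations include the difference between groups and are given as a description.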

How the data were processed

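RNA of 10 libraries of mouse morulae, each a pool of 10 embryos, was measured by sequencing of polyadenylated RNA after full-length cDNA amplification with the SMART-Seq v4 PLUS kit, per the labels' protocols. STAR 2.7.10, RSEM 1.3.3 and the build mm10 are named, with no role, in the submitters' processing notes. Options, strand setting and annotation release are not given in the sources used here. Expected counts were deposited by the authors; in them reads matching several genes are shared out, so values of genes with near-identical stretches are uncertain. The deposited FPKM values were scaled by the authors to transcript length and fragments, and the deposited TPM values to a common sum per library. Expected counts were rounded and tested with edgeR 4.0.16 (quasi-likelihood test, TMM scaling) in R 4.3.3, with terms for batch and group, over 9522 genes averaging at least 1 FPKM. Adjusted p is Benjamini-Hochberg over all genes tested, called under 0.05; fold changes are Mettl3-ASO over ASO-Control, and SE is the absolute log2 fold change over the square root of F. Genes under the minimum were read from the same test with no minimum, and their alternatives were run that way, a choice added after the data were seen. In the fits of all 10 libraries and of the untagged libraries with no minimum, p-values drew almost wholly on spread shared over genes. limma 3.58.1 on log2(FPKM + 1) and DESeq2 1.42.0 were alternatives. The tests were checked on simulated data with known log2 changes of 1 and 2. With the minimum, the fit of all 10 libraries recovered 78% and 95.4% of them. With no minimum it recovered 30% and 57.5%, and the fit of the untagged libraries 12.5% and 43.3%. A gene not called with no minimum may therefore still differ. Fragments carry no molecular identifiers, so intervals cover counting error only. The 9 genes and the lists were chosen with earlier results of these data known. Beside the 9 genes and Mettl3, the rule named the 3 tested genes of each pathway list with the smallest p and the 3 genes most correlated with the gene of smallest p; other genes were picked with their values known. A gene that the rule names is not reported here. Same-numbered libraries of the 2 groups, numbered in the titles, deviated together (r = 0.19 to 0.32 in 5 of 5 pairs, over the limit of 0.1). Pairs 1 and 2 give 1 value. Libraries of different number and batch also passed the limit, with r = 0.174 for Mettl3-ASO replicate 2 and ASO-Control replicate 5. For Mettl3-ASO replicate 1 and ASO-Control replicate 5, r was -0.174. Passing the limit therefore does not by itself show a pairing. The labels do not state a pairing. The numbers were used as a block in alternative fits only, and the main fit has no term for them. Chi-square over its degrees of freedom was 21.2 or more between libraries of a group and batch, so none was counted as a duplicate. Gene positions are from GENCODE on GRCm38, and promoter sequences from RefSeq.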

Additional observations from a re-analysis of the deposited data

Results flagged for a closer look

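Ifih1 in Mettl3-ASO replicate 2 was 0.70 FPKM, far from the other 4 libraries of its group, which lay between 0.04 and 0.15 FPKM. The gap was tested in 18 groups of 5 libraries (9 genes in 2 groups), of which about 1 in 20 would be picked out by chance, and this was the only 1 found. Its cause was not tested. None of the 9 genes was picked out for a difference between batches, and all columns used by the comparisons belong to the 10 libraries.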

How the results depend on the processing

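Of the alternatives run for the 9 genes, 201 kept direction and side of the threshold, 8 lost the call, 1 gained it and 6 changed sign; for the other pathway genes named the numbers were 529, 31, 1 and 0. Irf9 and Ddx58 kept their call in each alternative to the fit of all 10 libraries that tested them, but in the untagged libraries neither was called without either ASO-Control library. The count of called genes among the 9 was 3, against 1 in the untagged libraries alone and 5 with no minimum; with a mean FPKM of at least 5 none was tested. Of all genes, 596 were called in the untagged libraries alone, against 4704 in all 10. In the untagged libraries the count was 1, against 3 with the replicate block and 0 to 2 when 1 library was left out, which leaves 1 library in a group and takes the spread from the other group; in batch 2 it was 3, with 2 to 4. The replicate block over all 10 libraries called 5246 genes and the same 3 of the 9. Ifih1 lost its call under limma on log2(FPKM + 0.1), on log2(FPKM + 5) and on log2(TPM + 1), with log2 differences of 1.11, 0.05 and 0.24, beside the losses given above. Changes of sign were found for Irf7, whose log2 fold change was -0.61 to 1.42 when 1 library was left out and -0.14 in the untagged libraries, and for Isg15, with -0.36 there. The cause was not tested. Irf7, Dhx58 and Isg15 rested on 7 to 33 counts per group.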
